A study of Mus musculus with 2 samples.

Results

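The Mir142 locus on mouse chromosome 11 carries a pair of microRNA (miRNA) genes on opposite strands, Mir142 on the plus strand and Mir142b on the minus strand. The count tables hold this locus as 1 row of 1973, named Mir142b (ENSMUSG00000065420.2), and nearly all of its reads lie on the strand of Mir142. The row was chosen by its read counts, on the opposite strand and over both strands, in these libraries, so its level, its rank and its strand split are given as descriptions, without a test. Small RNA was sequenced from whole thymus (both lobes) of 2 newborn pups of the mouse strain B6NCrl, on postnatal day 0, with 1 library for each. Pup 2 of litter 1 gave replicate 1 and pup 3 gave replicate 2. Both libraries have a size limit of 30 nucleotides, carry no treatment or allele in the labels and form a single group. The labels give both the same donor identifier and no sex, and 1 library per pup means that a difference between pups cannot be told apart from dissection, library preparation or depth.

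Mir142 is a miRNA gene of blood cells, made in nearly all cells of the haematopoietic lineages and little outside them, and in the thymus it is made by developing T cells among others. As for other miRNAs, a hairpin is cut from a longer primary transcript and then trimmed to a short duplex, of which the 5p or the 3p strand is loaded into an Argonaute protein. The seed, bases 2 to 8 of the loaded strand, sets most of the pairing with target mRNAs. Both arms of the Mir142 hairpin are known as functional miRNAs, and mice without the gene have defects in lymphocytes and in other blood cells.

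The sequences below, from RefSeq (build GRCm38.p6), show which RNAs the locus could yield on each strand. All are written 5′ to 3′. In the 3 mature miRNAs the capitals mark the seed, in the Mir142 hairpin they mark the 5p and 3p miRNAs, and in the Mir142b hairpin they mark miR-142b.
mmu-miR-142a-5p (chr11:87756867-87756887, plus strand): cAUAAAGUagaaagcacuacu
mmu-miR-142a-3p (chr11:87756903-87756925, plus strand): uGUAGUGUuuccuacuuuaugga
mmu-miR-142b (chr11:87756906-87756925, minus strand): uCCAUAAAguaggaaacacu
Mir142 hairpin (chr11:87756864-87756927, plus strand): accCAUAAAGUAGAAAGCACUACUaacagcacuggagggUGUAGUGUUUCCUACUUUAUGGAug
Mir142b hairpin (chr11:87756841-87756955, minus strand): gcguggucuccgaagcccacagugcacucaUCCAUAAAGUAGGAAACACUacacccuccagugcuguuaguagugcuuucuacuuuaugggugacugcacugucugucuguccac

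The whole Mir142 hairpin of 64 bases lies within the 115 bases of Mir142b, as its exact reverse complement. All 20 bases of miR-142b are complementary to miR-142a-3p without a gap or mismatch. Because the 5p and 3p strands of a hairpin pair with each other, miR-142b also resembles miR-142a-5p: at the best ungapped alignment 16 of 18 bases match, with a shared run of 10 bases, cauaaaguag. The resemblance is offset by 2 bases, so the seeds differ. None of the 3 seeds is shared with any other of the 1679 mature mouse miRNAs in the table searched, also when only bases 2 to 7 are compared.

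RNAfold gave the Mir142 hairpin a minimum free energy of -26.9 kcal/mol, with 19 of the 21 bases of the 5p strand paired with the 3p strand, and the longer Mir142b hairpin -50.6 kcal/mol. Per base these energies are -0.42 and -0.44 kcal/mol. By predicted folding, both strands of the locus can thus form a hairpin. The hairpins folded differ in length, 64 and 115 bases, and the same stretch was not folded on both strands. The predictions do not separate the strand that was read from the one that was not.

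In GENCODE M21, Mir142 lies in the intron of Mir142hg, its 2-exon noncoding host gene (chromosome 11, 87755577 to 87757270, plus strand), 111 bases before the last exon. Mir142b overlaps the same intron on the other strand. The nearest protein-coding genes are Tspoap1, which starts 3613 bases downstream on the plus strand, and Supt4a, which ends 13240 bases upstream. Mir142hg, Tspoap1 and Supt4a were not measured in these tables of miRNA genes.

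**Figure D1:**
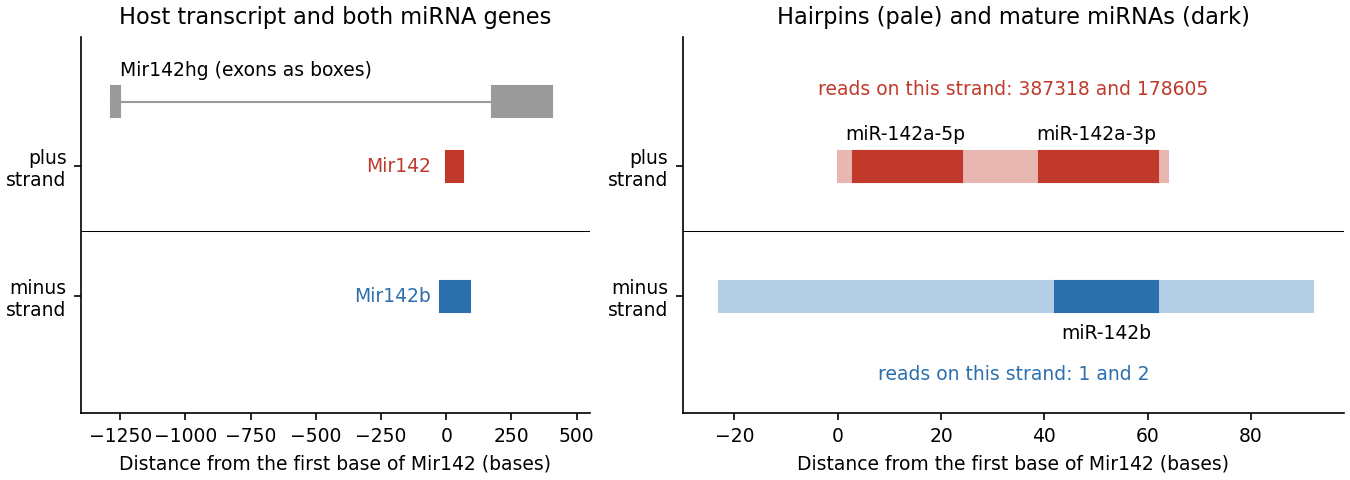
Map of the locus, with the distance in bases from the first base of Mir142 on the x axis and the strand on the y axis; the left panel shows the host gene with its exons as boxes, and the right panel the hairpins (pale) with their mature miRNAs (dark). The plus strand, where Mir142 lies, held 387318 reads in replicate 1 and 178605 in replicate 2, and the minus strand, where Mir142b lies, held 1 and 2.

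On the strand of Mir142 the row held 387318 reads in replicate 1 and 178605 in replicate 2. On the strand of Mir142b, the annotated strand of the row, it held 1 read and 2 reads. The locus was thus read almost wholly as Mir142 in both pups. Reads on the Mir142b strand made up 0.000258% of the row in replicate 1 (95% exact interval 6.54e-06 to 0.00144) and 0.00112% in replicate 2 (0.000136 to 0.00404).

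These few reads can be set beside stray reads elsewhere. Of 104 genes with at least 1000 reads in both libraries that were read mainly on their annotated strand, 94 in replicate 1 and 91 in replicate 2 had no read on the other strand. Pooled over these genes, the other strand held 0.0014% of reads in replicate 1 (37 of 2649519) and 0.00264% in replicate 2 (33 of 1248700). The pool includes Mir126a (13 and 8 such reads) and Mir374b (2 and 2), which overlap a miRNA gene on that strand. Reads of such partners were not told apart from stray reads. The share on the Mir142b strand was below these pooled shares in both libraries, while its interval reached above them, so reads of Mir142b were not detectable above the level of stray reads at this depth. The highest single share among the 104 genes was 0.102% in replicate 1 (Mir183) and 0.27% in replicate 2 (Mir10a).

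The tables do not separate the arms of a hairpin, so how the reads divide between miR-142a-5p and miR-142a-3p was not analysed here. Each mature sequence of the locus was found in no transcript outside Mir142 and Mir142b among the 141767 GENCODE M21 transcripts searched on both strands, and the row shares no stretch of 20 bases with a miRNA gene elsewhere. Reads that map to several places were tallied apart from the genes by the authors, which can lower the counts of miRNAs with copies elsewhere. No such copy of Mir142 was found among annotated transcripts; the genome outside them was not searched.

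Reads on the Mir142 strand took 12.1% of all reads counted over miRNA genes on both strands in replicate 1 (95% Wilson interval 12.06 to 12.13) and 11.9% in replicate 2 (11.82 to 11.92), a mean of 11.98% ± 0.159 (SD, n = 2). The denominators were 3202488 and 1504777 reads, and replicate 1 was 2.13 times as deep. The intervals cover counting error only, since no molecular identifiers are described and reads copied by PCR are not independent molecules. Of all reads in the tables, including those that were unmapped or mapped to several places, the locus took 3.64% in replicate 1 and 3.65% in replicate 2.

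The row ranked 1 of 1973 by reads on both strands in each library. Reads that map to several places, 56.3% and 57.5% of all reads, were in no row. The ranks and folds here thus hold among uniquely mapped reads only. Mirlet7g, a let-7 gene that accumulates as cells differentiate, was the next with 6.32% in replicate 1 and 5.28% in replicate 2, so that the Mir142b row exceeded it by 2.08 ± 0.238 times (SD, n = 2). Mir26b, which lies within a phosphatase gene, took 5.61% and 4.65%. Mir143, best known from smooth muscle, took 3.67% and 4.91%. The lowest value of the Mir142b row, 11.9%, lay above the highest of every other gene, 6.32%. Below it the order was less settled: Mirlet7g stood at rank 2 in both libraries, but Mir26b ranked 3 and 4, and Mir143 ranked 6 and 3.

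The remaining genes among the 10 highest by mean share were Mir17, the first gene of a cluster that supports lymphocyte proliferation, at 3.93% ± 0.203, Mir30e at 3.69% ± 0.288, Mir21a at 3.45% ± 0.11, Mir181a-1, a miRNA of thymocytes, at 3.13% ± 0.0635, Mir126a, a miRNA of endothelial cells, at 2.8% ± 0.566, and Mir93 at 2.55% ± 0.0336. The Mir142b row exceeded Mir181a-1 by 3.82 ± 0.0268 times and Mir93 by 4.69 ± 0.000578 times. Its reads were more than those of the 1919 genes with the lowest counts together in replicate 1, and of the 1916 lowest in replicate 2, out of 1972 other genes. A gene in the middle of the 304 with at least 10 reads in both libraries had 729 reads in replicate 1 and 344 in replicate 2.

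The annotated rows differ in length, from 63 to 115 bases among these 10, with the Mir142b row the longest. The tables give no read lengths or positions, so whether the length of a row scales its count was not tested. Per annotated base the row held 3368 reads in replicate 1 and 1553 in replicate 2, still the highest of all genes. The fold over the next gene was then 1.46 in replicate 1 (over Mirlet7g) and 1.32 in replicate 2 (over Mir143). The divisor was the 115 bases of the Mir142b row, whereas the Mir142 hairpin, on the strand that was read, has 64 bases. Dividing by that shorter length, which was not done, would give higher folds.

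**Figure D2:**
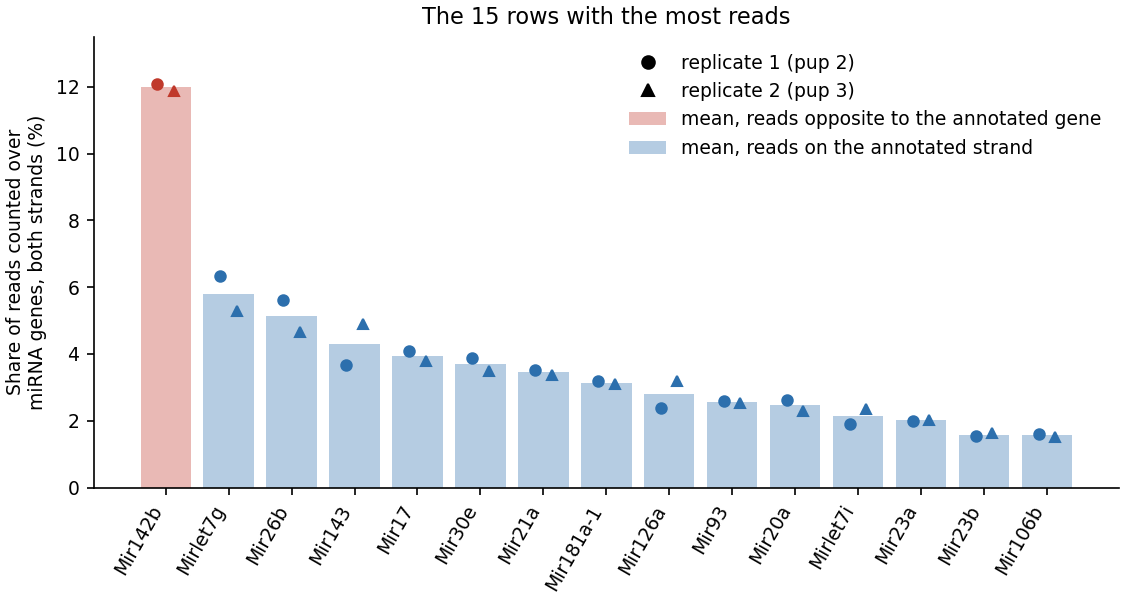
Share of reads counted over miRNA genes on both strands (y axis, %) for the 15 rows with the most reads (x axis); bars are means of 2 libraries, circles replicate 1 and triangles replicate 2. The Mir142b row, read opposite to its annotation (red), stood at 12.1% and 11.9%, and no other row passed 6.32%.

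In the column of reads on the annotated strand, which a strand-aware count would use, the same row had 1 and 2 reads and tied for rank 535 in replicate 1 and rank 400 in replicate 2. The rank of the locus thus depends on which column is taken.

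The Mir142b row supplied most of the reads on the opposite strand in the whole table. The opposite-strand column summed to 468355 reads in replicate 1 and 215626 in replicate 2, of which this row held 82.7% and 82.8% (mean 82.8% ± 0.0943, SD, n = 2). With the row, opposite-strand reads were 14.6% and 14.3% of counted reads. Without it they were 2.88% and 2.79%.

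Of the 304 genes with at least 10 reads in both libraries, 10 (3.29%) had over 50% of their reads on the opposite strand in both, a count that includes the Mir142b row by the way it was chosen. Each of the 10 overlaps a miRNA gene annotated on the other strand in GENCODE M21, and in no case does that partner have a row of its own in the tables. The 10 rows together held 99.96% of opposite-strand reads in replicate 1 and 99.93% in replicate 2. The next after Mir142b was Gm25301, opposite to Mir378a, with 37133 and 17490 reads, 10.4 and 10.2 times fewer. Gm24083, opposite to Mir191, had 32754 and 13876 reads.

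The other named rows of this kind were far lower. Gm25927, opposite to Mirlet7e, had 3696 and 1733 reads. Gm25252, opposite to Mir376a, had 2630 and 1335, and Gm24321, opposite to Mir409, had 1674 and 900. Mir299b, opposite to Mir299a, had 1030 and 645. Over the 9 other rows, reads on the annotated strand came to 2 in replicate 1, both at Mir497b, and 0 in replicate 2. The splits were not tested against that of Mir142b.

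An overlapping partner did not by itself go with reads on the opposite strand. Of 22 genes with at least 10 reads in both libraries that overlap a miRNA gene on the other strand, 12 were read mainly on their annotated strand. The partners of these 12 had no row of their own either, so that lack was common to all 22 genes. Among the 12, Mir126a, opposite to Mir126b, had 13 and 8 of its 76702 and 48091 reads on the other strand, and Mir30e, opposite to Mir30f, had 0 in both libraries. Mir3074-1, opposite to Mir24-1, was the most mixed of the 12, with 116 of 627 and 89 of 313. These 3 were chosen after their values were seen.

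**Figure D3:**
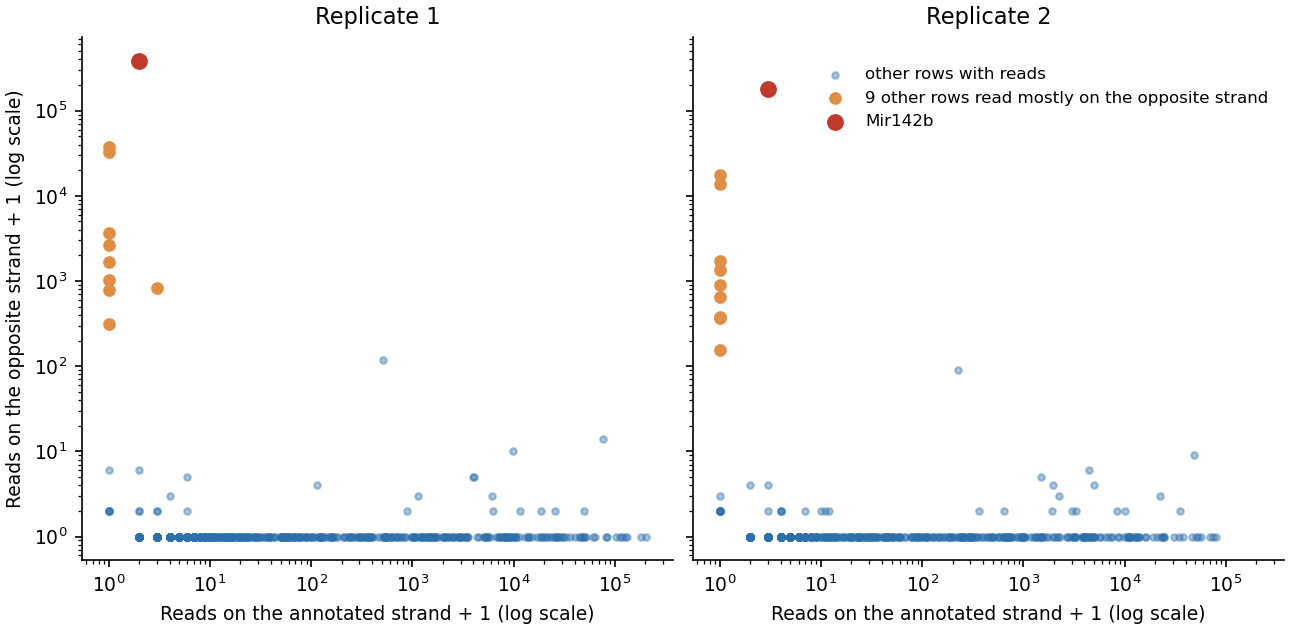
Reads on the annotated strand (x axis, reads + 1, log scale) against reads on the opposite strand (y axis, reads + 1, log scale) for each row with reads, 1 panel per library. The Mir142b row (red) and the 9 other rows read mostly on the opposite strand (orange) lie at the left edge, and the Mir142b row is the highest with 387318 and 178605 reads.

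Reads on the Mir142 strand were next set beside miRNAs known from particular cell types. In whole tissue, fewer cells of a type and less miRNA per cell cannot be told apart, and no test between genes was run. A blood-cell list held 15 genes, and all 15 had a row. Together they took 6.33% of counted reads in replicate 1 and 5.8% in replicate 2. The Mir142b row exceeded their sum by 1.91 and 2.05 times, and made up 66.4% ± 1.07 (SD, n = 2) of the list and itself.

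The 11 T cell and lymphocyte miRNAs summed to 6.23% and 5.72%. Mir181a-1, known to make thymocytes respond to weaker T cell receptor signals, had 101764 and 46465 reads, 3.81 and 3.84 times fewer than the Mir142b row. Mir181b-2 had 30723 and 9944 reads, Mir181c 23577 and 11371, and Mir181d 15195 and 5768. The copies Mir181a-2 (352 and 344 reads) and Mir181b-1 (362 and 110) were low. All 4 Mir181a and Mir181b genes share 20 bases with another locus, so their counts can be too low by an unknown amount, and the folds against them are uncertain.

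Mir155, Mir342 and Mir150, which like Mir181c and Mir181d share no 20 bases with another locus, were lower than these. Mir155, a miRNA of activated lymphocytes, had 10367 and 4170 reads, Mir342 8947 and 3950, and Mir150, a miRNA of mature lymphocytes, 5067 and 3008. The Mir142b row exceeded Mir155 by 37.4 and 42.8 times and Mir150 by 76.4 and 59.4 times. Mir146a, a miRNA induced in activated immune cells and named Mir146 in GENCODE M21, had 3045 and 942 reads, and Mir146b had 5 in each library; both share 20 bases with another locus.

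Myeloid and erythroid miRNAs had far fewer reads than the Mir142b row. Mir223, a miRNA of granulocytes, had 2513 and 1015 reads, 154 and 176 times fewer than the Mir142b row. Mir511, of macrophages and dendritic cells, had 58 and 18. Mir451a and Mir144, the pair of red blood cell precursors, had 394 and 106 reads and 238 and 110 reads. The myeloid list summed to 0.0745% ± 0.00823 of counted reads and the erythroid list to 0.017% ± 0.0038.

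miRNAs of other cell types of the thymus were also present, with 12 of 12 listed genes counted and a summed share of 9.34% in replicate 1 and 11.5% in replicate 2. The Mir142b row alone exceeded this sum by 1.29 and 1.03 times. That comparison holds for the 12 listed genes only. Further genes would raise the sum, the margin in replicate 2 was small, and other lists were not tried. Mir126a of endothelium took 2.4% and 3.2%, Mir143 and Mir145a together 3.83% and 5.09%, and the 6 epithelial genes together 3.07% and 3.19%. Of the epithelial genes, Mir205, known from stratified epithelia, had 25553 and 13413 reads, Mir200c 28435 and 10582, and Mir429 24111 and 12699. The 3 muscle genes summed to 0.0405% and 0.054%, mostly from Mir206 with 1217 and 570 reads. The muscle genes went apart between the pups: Mir208b, a miRNA of heart muscle and slow skeletal muscle, had 60 and 238 reads. Mir206 took 0.038% of counted reads in each library. Mir133b had 19 and 4 reads and shares 20 bases with other loci, so its counts can be too low by an unknown amount. Both libraries thus held miRNAs of lymphocytes, epithelium, mesenchyme and endothelium beside the Mir142 reads.

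**Figure D4:**
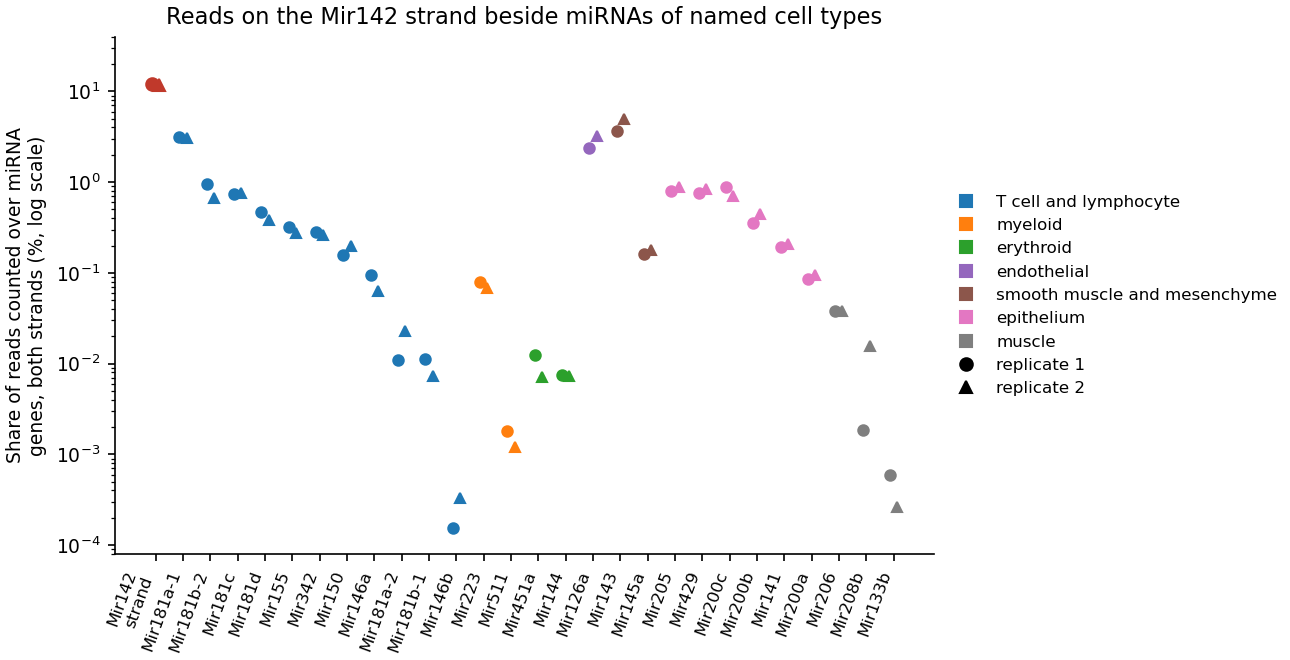
Share of reads counted over miRNA genes on both strands (y axis, %, log scale) for the Mir142 strand of the Mir142b row (red) and for counted genes of 7 cell type lists (x axis), circles for replicate 1 and triangles for replicate 2. The Mir142 strand stood at 12.1% and 11.9%, above Mir143 at 3.67% and 4.91% and Mir181a-1 at 3.13% ± 0.0635 (SD, n = 2).

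Between the littermates the Mir142 reads were nearly equal. After scaling by TMM, which assumes that most genes do not differ, the log2 ratio of replicate 2 over replicate 1 was -0.092 (exact 95% interval from counting error -0.1 to -0.084), or 1.07 times more in replicate 1. This is less than the median absolute log2 ratio of 0.21 over the 304 genes with at least 10 reads in both libraries, and 82 of the 304 had a smaller one. Every other gene had fewer reads, and counting error alone widens the ratios of genes near 10 reads, so that median is an unlike measure for this row. The interval leaves out 0, but with 1 library per pup the ratio itself is the spread between replicates and has no further check, so no p-value is given. Past 1.5-fold in either direction were 36 of the 304 genes (11.8%), and the Mir142b row was not among them.

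Among the other 19 of the 20 most abundant genes, 12 were lower and 7 higher in replicate 2, with log2 ratios from -0.33 to 0.45. Scaled to total counted reads, which include the row itself, the log2 ratio of the Mir142 reads was -0.027. Only Mir93 and Mir23a of these 19 then lay closer to 0. Under TMM, Mir23b (0.0014), Mir23a (-0.042), Mir16-1 (0.054) and, by a hair, Mir93 lay closer to 0. Among the 49 other genes of the 50 most abundant, the 3 with the ratio nearest to that of Mir142b were Mir93 (log2 ratio -0.092), Mir363 (-0.1) and Mir30d (-0.08). With only 2 libraries this likeness rests on 1 ratio per gene, and 16 of the 49 lay within 0.1 of it.

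Of the blood-cell list, 14 genes had enough reads for a ratio. Their median log2 ratio was -0.29, beside -0.024 over all 304 genes, and 12 of 14 were below 0. The log2 ratio of the Mir142 reads lay above those of 10 of these 14. How many of all 304 genes fell below the same cuts was not counted, so these counts are not read as particular to the list. Some of the 14 lie side by side, as Mir181a-1 and Mir181b-1 do, and are not independent. The extremes of the 14 were Mir451a at -0.87 and Mir181a-2 at 0.99. Past 1.5-fold were 6 of the 14, beside 36 of all 304 genes (11.8%). The 6 were Mir181a-2, Mir181b-1, Mir181b-2, Mir146a (-0.67), Mir511 and Mir451a. Mir146a and the Mir181 genes among them share 20 bases with another locus. Mir155 stood at -0.29, Mir223 at -0.28, Mir342 at -0.15 and Mir181a-1 at -0.11, whereas Mir150 stood at 0.27. The endothelial Mir126a (0.35) and the mesenchymal Mir143 (0.35) were higher in replicate 2, and Mir208b was much higher there (3.01). The part of tissue make-up in these ratios was not tested.

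**Figure D5:**
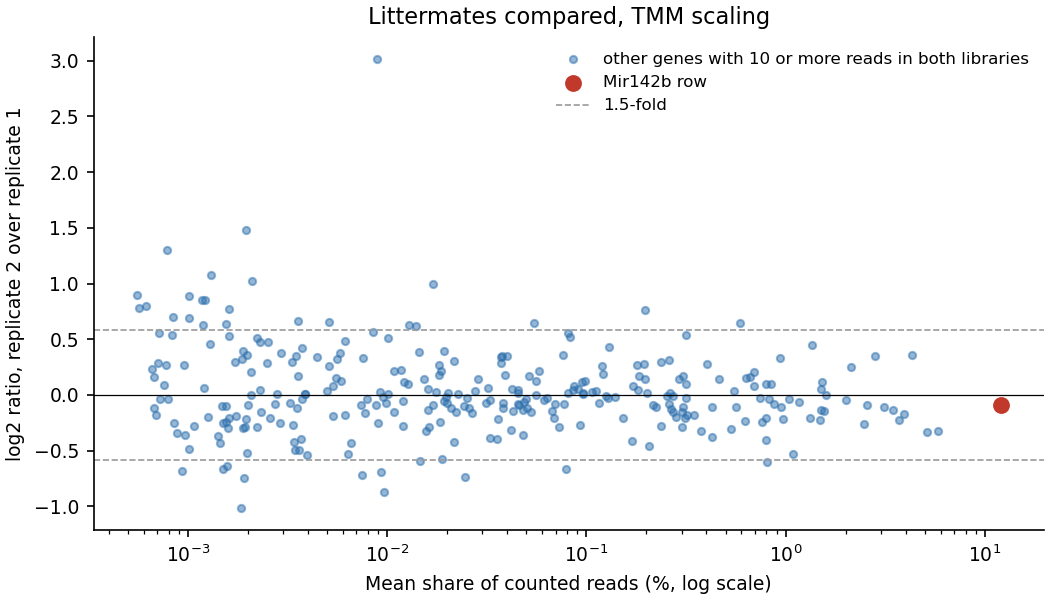
log2 ratio of replicate 2 over replicate 1 (y axis, TMM scaling) against the mean share of counted reads (x axis, %, log scale) for 304 genes with at least 10 reads in both libraries; dashed lines mark 1.5-fold. The Mir142b row (red) lies farthest to the right at a log2 ratio of -0.092, inside the dashed lines.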

How the data were processed

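The authors deposited a table of raw counts for each library, with 1 row per miRNA gene, neither pooled nor normalized. Reads were mapped to mm10 and counted over GENCODE M4, per the text files deposited with the tables; the sources used here do not name an aligner or a counter. From the values, the first count column is the sum of the other columns in every gene, the second holds the gene strand and the third the opposite strand. That the Mir142b row lies on the minus strand was taken from GENCODE M21, where 1894 of 1973 identifiers matched; the 79 others had at most 5 reads. Library rows that name no gene (unmapped 10.6% and 9.17%, multimapping 56.3% and 57.5%, no feature 2.99% and 2.57% of 10642220 and 4892171 reads; ambiguous 0) stayed out of the sums.

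Shares use the sum over both strands. Ratios use TMM from edgeR 4.0.16 (R 4.3.3), which was tested on simulated data, over 304 genes with at least 10 reads in both libraries. A list or row at 0 reads would allow 3 counts, 0.937 and 1.99 reads per 1000000. Intervals came from scipy 1.17.1 and folding from RNAfold 2.7.2. The libraries are not copies (chi-square 27694 on 696 degrees of freedom).

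The row, the lists and the rules were chosen with earlier results of these data known. Named genes were the 10 highest by mean share, the 6 rows with most opposite-strand reads among rows mostly read there, the listed blood-cell genes and the 3 of the 50 most abundant with the nearest ratio; markers of other cell types and further genes are examples. Alternatives were other denominators, DESeq2 1.42.0 size factors, total counts, other filters, list members and columns, and each library alone.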

Additional observations from a re-analysis of the deposited data

How the results depend on the processing

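The Mir142b row ranked 1 under each setting tried: the Mir142 strand reads against the gene-strand column of other genes, each library alone, and reads per annotated base, which was chosen after seeing the data. The strand and single-library settings could not have changed the rank. It was already 1 in each library, and the strand setting took only 1 and 2 reads from the row. None of these settings assigns reads that map to several places, so their effect on the rank was not tested. The mean share of the row, 11.98%, depended on the denominator: 12.3% with the gene-strand column plus the Mir142 reads, 10.98% of uniquely mapped reads, 3.65% of all reads and 14.2% with genes that share 20 bases with another locus left out. Each library alone gave 11.9% to 12.1%. The log2 ratio of replicate 2 over replicate 1 stayed below 0 under the 6 other scalings and filters: it was -0.027 with total counts, -0.068 with DESeq2 size factors, -0.070 with at least 100 reads in both libraries and -0.12 with at least 1 read in either. The cause of these shifts was not tested. Rows read mostly on the opposite strand numbered 10, also over 90% or with 100 reads, and 16 with 1 read in either library. The fold over the next gene was 2.08, with 1.91 to 2.25 in each library alone and 1.39 per annotated base, taking 115 bases for the Mir142b row. The share of the Mir142b row within the blood-cell list rose from 66.4% to 92.9% without Mir181 genes and to 85.6% without genes that share 20 bases, since fewer genes were summed. No paired analysis was possible because both libraries belong to 1 group. Depth limits what can be said of the Mir142b strand, with 1 and 2 reads.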
